A study of Mus musculus with 4 samples.

Results

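Versican, hyaluronan genes around it and ADAMTS proteases that cut it were followed in RNA from the embryonic mouse outflow tract with and without endothelial Sox17. The members were chosen by function and named by symbol: Vcan, the hyaluronan genes Has2, Hapln1 and Cd44, and the protease genes Adamts1, Adamts5, Adamts9, Adamts15 and Adamts20. All 9 were found among the 45706 genes of the count table, and all 9 passed the filter on low counts. Sox17eKO embryos carried a Sox17 deletion in aortic root endothelium driven by Nfatc1 enhancer Cre, and the controls were wild type (WT). Both groups were C57BL/6 at embryonic day 12.5, and each library came from 10 pooled hearts, with 2 pools per genotype. The comparison was made to find targets of SOX17, an endothelial transcription factor. The labels do not say whether the WT embryos carried the Cre or a floxed allele. The whole outflow tract was sequenced, so endothelium was measured together with mesenchyme, muscle and blood.

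The early heart tube is lined by cardiac jelly, a hyaluronan-rich matrix between the endocardium and the myocardium that swells into the cushions from which valves and septa form. Versican is a large proteoglycan that carries chondroitin sulfate chains, binds hyaluronan through its amino-terminal domain and is held there by a link protein. ADAMTS enzymes are secreted metalloproteases, and several of them cut versican as cushions are remodelled into thin leaflets.

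Reads assigned to genes numbered 14306550 and 21883956 in Sox17eKO replicates 1 and 2, and 12880081 and 8113463 in WT replicates 1 and 2. Sox17 itself was at 2.76 and 2.82 library-scaled counts (CPM) in the Sox17eKO libraries, against 6.05 and 6.83 CPM in the WT libraries (log2 fold change -1.19, SE 0.23, edgeR adjusted p = 0.00574), so the targeted gene was lower in both libraries labelled Sox17eKO. Uniquely placed reads outside annotated exons made up 34.1% and 29.5% in Sox17eKO replicates 1 and 2, against 22.2% and 20.4% in WT replicates 1 and 2. Of 16570 genes tested, 5.35% were called at an edgeR adjusted p under 0.05. Calls higher in Sox17eKO made up 4.13% of genes tested and calls lower in Sox17eKO 1.22%, or 684 genes against 202. That excess of higher calls depended on the processing, with 769 higher and 111 lower under library size scaling, 613 and 484 with a trend on GC content removed from each library, 64 and 58 with a trend on exonic length removed, and 133 and 175 with both trends removed.

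Of the 9 genes, Vcan and Adamts9 rose in Sox17eKO outflow tracts, none fell, and 7 did not pass the test. The 2 calls are set against the 5.35% of all genes called. The fitted level was higher in Sox17eKO for 8 of the 9, with a median log2 fold change of 0.19, while the median over all genes tested was -0.01. Both Sox17eKO libraries lay above both WT libraries for 7 genes, and 26.5% of all genes tested had that order. Hapln1 and Adamts20 were the 2 whose groups overlapped. In RNA from whole outflow tracts, a larger share of cells of one type and more RNA per cell cannot be told apart.

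Levels were compared between genes as CPM per kilobase of exonic length (RPKM). Vcan was far above the others, at 166 ± 8.98 RPKM in Sox17eKO and 116 ± 21.04 RPKM in WT (mean ± SD, n = 2 pools each). Vcan made up 77.1% and 75.9% of the summed CPM of the 9 genes in the Sox17eKO libraries, against 73.7% and 69.6% in the WT libraries. These shares are of CPM and not per length. They weigh Vcan by its 14462 bp of exon and cannot be set beside a share of RPKM. Adamts1 followed at 36.1 ± 3.25 RPKM in Sox17eKO and 31.7 ± 0.480 RPKM in WT (mean ± SD, n = 2 each), and its range over the 4 libraries overlapped that of Hapln1. Hapln1 stood at 29.0 ± 4.25 RPKM in Sox17eKO and 29.1 ± 0.0750 RPKM in WT (mean ± SD, n = 2 each). Has2, between 11.7 and 16.7 RPKM, overlapped Cd44, between 11.1 and 13.4 RPKM. Adamts9, between 5.50 and 8.09 RPKM, overlapped Adamts15, between 5.19 and 6.76 RPKM. Adamts5 lay apart at 3.17 to 3.52 RPKM, and Adamts20 was lowest at 0.492 to 0.744 RPKM. Of the 8 neighbouring pairs in this order, 3 overlapped.

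**Figure D1:**
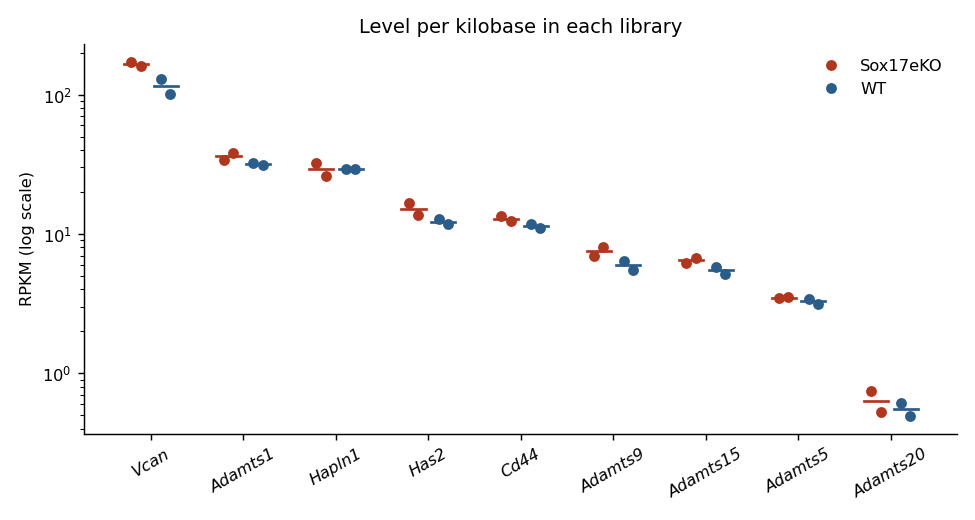
Level of each of the 9 genes per kilobase of exonic length (RPKM, log scale) in the 2 Sox17eKO and 2 WT libraries, with points for libraries and bars for group means. Vcan sits above the other 8 genes in all 4 libraries, and its 2 Sox17eKO points lie above its 2 WT points.

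Vcan (ENSMUSG00000021614), the versican gene, occupies positions 89655312 to 89742509 of chromosome 13 (mm10, minus strand). Its level was 2490 and 2306 CPM in Sox17eKO replicates 1 and 2, against 1886 and 1456 CPM in WT replicates 1 and 2. The groups did not overlap, and the lower Sox17eKO library was 1.22-fold above the higher WT library, while the WT libraries differed from each other by 1.30-fold. The fitted level was 43.4% higher in Sox17eKO, a log2 fold change of 0.52 with an SE of 0.11 and a 95% interval of 0.29 to 0.75 (edgeR adjusted p = 0.0106). These values rest on 36107 and 50705 reads in the Sox17eKO libraries and 24323 and 11510 reads in the WT libraries. Without WT replicate 2, the shallowest library and the one with the lowest Vcan level, the log2 fold change was 0.35 and did not pass (edgeR adjusted p = 0.0882). It passed with any other library left out (0.46 to 0.72), and DESeq2 gave the same size without a call (0.52, DESeq2 adjusted p = 0.085). Counts per gene do not separate the splice forms of versican, which differ in how much of the chondroitin sulfate region they hold.

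Vcan and Hapln1 are neighbours, with 43659 bp between their 3' ends and no protein-coding gene in between, and they run toward each other. Vcan was called and Hapln1, with a fitted log2 fold change of -0.0038, was not, and the difference between the neighbours was not tested. The promoter windows of the called genes Vcan and Adamts9 and of Hapln1 are printed because the study looked for SOX17 targets. Each window holds 250 bases before and 50 after a RefSeq start (GRCm38.p6), 5' to 3' on the gene's strand, and 6 of the 9 genes had one. Capitals mark ACAAT or its reverse complement ATTGT (the core letters that SOX factors bind), CCAAT or ATTGG, and TATAAA or TTTATA, none of which overlap here.
Vcan, chr13:89742463-89742762, minus strand: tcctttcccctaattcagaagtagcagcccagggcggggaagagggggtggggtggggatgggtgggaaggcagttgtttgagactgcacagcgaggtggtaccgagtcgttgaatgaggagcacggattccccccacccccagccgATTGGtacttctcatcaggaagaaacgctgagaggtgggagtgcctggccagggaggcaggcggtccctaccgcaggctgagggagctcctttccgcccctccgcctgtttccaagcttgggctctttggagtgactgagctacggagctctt
Hapln1, chr13:89540386-89540685, plus strand: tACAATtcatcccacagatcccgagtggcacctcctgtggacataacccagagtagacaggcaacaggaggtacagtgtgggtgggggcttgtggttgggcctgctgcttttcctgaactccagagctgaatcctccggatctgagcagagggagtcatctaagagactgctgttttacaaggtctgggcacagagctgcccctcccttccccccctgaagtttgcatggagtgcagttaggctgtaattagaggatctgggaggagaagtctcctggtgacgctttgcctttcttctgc
Adamts9, chr6:92943485-92943784, minus strand: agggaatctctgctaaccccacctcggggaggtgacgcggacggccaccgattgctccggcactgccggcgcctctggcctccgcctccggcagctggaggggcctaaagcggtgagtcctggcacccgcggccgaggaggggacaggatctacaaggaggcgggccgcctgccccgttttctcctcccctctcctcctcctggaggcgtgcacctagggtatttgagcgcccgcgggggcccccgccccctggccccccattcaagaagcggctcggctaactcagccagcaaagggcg
The Vcan window held 1 CCAAT match and no ACAAT match, the Hapln1 window held 1 ACAAT match, and the Adamts9 window held none of these motifs. Of the other windows, that of Adamts20 held 1 CCAAT match, that of Adamts1 held 1 TATAAA match and that of Cd44 held none. The Hapln1 and Adamts20 windows lie inside the annotated genes, downstream of their outermost 5' ends. That end is at 89539796 for Hapln1. For Adamts20 it is at 94465418, with the window at 94404301 to 94404600 (minus strand). Over 32851 mouse promoter windows of the same length, 31.0% held ACAAT on either strand, 37.4% held CCAAT and 13.6% held TATAAA. A match is a run of letters and not a measured binding site, and its absence applies to these 300 bases alone.

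Among the hyaluronan genes none passed by edgeR, although Has2 and Cd44 had an unadjusted p under 0.05. Such a p was common over all genes. Cd44, at an unadjusted edgeR p of 0.0426, ranked 3230 by p among the 16570 genes tested. Has2 encodes the synthase that makes most hyaluronan in the embryonic heart, and mice without it form neither cardiac jelly nor cushions. It was at 70.6 and 57.6 CPM in Sox17eKO replicates 1 and 2, against 54.3 and 49.6 CPM in WT replicates 1 and 2. Both Sox17eKO libraries were above both WT libraries, with a gap between the groups smaller than the difference between the Sox17eKO libraries. The log2 fold change was 0.29 (95% interval 0.09 to 0.50, edgeR adjusted p = 0.0871), and no call was made. The value rested on single libraries, at 0.14 without Sox17eKO replicate 1 (edgeR adjusted p = 0.612) and 0.44 without Sox17eKO replicate 2, where it passed (edgeR adjusted p = 0.00557). An antisense transcript, Has2os, shares 182 bp of exon with it and had 16 and 8 reads in the Sox17eKO libraries, against 6 and 9 reads in the WT libraries.

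Hapln1 encodes the link protein that locks versican onto hyaluronan, and it is a known endocardial and valve gene. Its level was 189 and 154 CPM in the Sox17eKO libraries, against 172 and 171 CPM in the WT libraries. The WT libraries fell between the Sox17eKO libraries, and the log2 fold change was -0.0038 (95% interval -0.19 to 0.18, edgeR adjusted p = 0.987). Its sign turned positive when counts were scaled by library size alone (0.028). Cd44, a cell surface receptor for hyaluronan, was at 90.7 and 84.0 CPM in the Sox17eKO libraries, against 79.3 and 75.1 CPM in the WT libraries. The groups were apart by a small step, with a log2 fold change of 0.17 (95% interval 0.01 to 0.34, edgeR adjusted p = 0.218).

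Of the 5 proteases, Adamts9 rose and the others did not pass. ADAMTS9 is a versican-cleaving protease, and mice with reduced Adamts9 have been described with valve and aortic wall defects. Adamts9 (chromosome 6, 92772699 to 92943492, minus strand, mm10) was at 104 and 122 CPM in Sox17eKO replicates 1 and 2, against 96.6 and 82.7 CPM in WT replicates 1 and 2. The groups did not overlap, and the log2 fold change was 0.33 with an SE of 0.09 (95% interval 0.13 to 0.52, edgeR adjusted p = 0.0464). The call was lost when WT replicate 2 was left out (0.23, edgeR adjusted p = 0.355), also when Sox17eKO replicate 2 was (0.21, edgeR adjusted p = 0.296), and with DESeq2 (0.33, DESeq2 adjusted p = 0.0777). Exons of A730049H05Rik on the opposite strand cover 1381 bp of Adamts9, and the strand setting of the counting is not given in the sources used here. That gene had 38 and 49 reads in the Sox17eKO libraries, against 31 and 8 reads in the WT libraries.

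Adamts1 and Adamts5 sit side by side on chromosome 16, 53059 bp apart. Adamts1, a protease that acts on versican when trabeculae stop growing in the mouse heart, was at 179 and 204 CPM in the Sox17eKO libraries, against 170 and 166 CPM in the WT libraries. Its log2 fold change was 0.19 (95% interval 0.02 to 0.36, edgeR adjusted p = 0.189). Adamts1 supplied 66.2% and 67.0% of the summed protease RPKM in the Sox17eKO libraries, against 66.4% and 68.6% in the WT libraries. The sum covers the 5 listed proteases only. Adamts4, for one, is not in it and averaged 0.97 RPKM in Sox17eKO and 0.98 RPKM in WT. Adamts5, whose loss in mice leaves enlarged valves with uncut versican, was at 37.4 and 38.0 CPM in the Sox17eKO libraries, against 37.0 and 34.2 CPM in the WT libraries. The groups were almost level, with a log2 fold change of 0.08 (95% interval -0.12 to 0.28, edgeR adjusted p = 0.698).

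Adamts15, another versican-cleaving protease, was at 63.6 and 70.0 CPM in the Sox17eKO libraries, against 59.6 and 53.8 CPM in the WT libraries. The groups were apart, with a log2 fold change of 0.23 (95% interval 0.05 to 0.42, edgeR adjusted p = 0.119). Adamts20, known from the belted coat pattern of mice that lack it, was at 6.69 and 4.78 CPM in the Sox17eKO libraries, against 5.51 and 4.43 CPM in the WT libraries. It rested on 97 and 105 reads in the Sox17eKO libraries and 71 and 35 reads in the WT libraries, and its interval was the widest of the 9 (log2 fold change 0.16, 95% interval -0.32 to 0.64, edgeR adjusted p = 0.75). Its sign turned without Sox17eKO replicate 1 (-0.08).

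The ratio of Vcan to the sum of the 5 listed proteases, in RPKM, was 3.37 and 2.78 in Sox17eKO replicates 1 and 2, against 2.70 and 2.20 in WT replicates 1 and 2. The groups did not overlap, with the lower Sox17eKO value close to the higher WT value. A two-sided exact permutation test of the log ratio gave p = 0.333, the smallest that 2 pools against 2 allow. It is a ratio of RNA levels and says nothing of cleaved protein. The genes in it also differ in exonic length, and a smooth trend on length (described below) differed between genotypes. Sox17eKO minus WT, that trend was 0.24 (log2) at Vcan and 0.03 at Adamts1, the largest part of the protease sum. At the other proteases it lay between 0.13 and 0.25. The ratio with the trend removed was not computed.

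**Figure D2:**
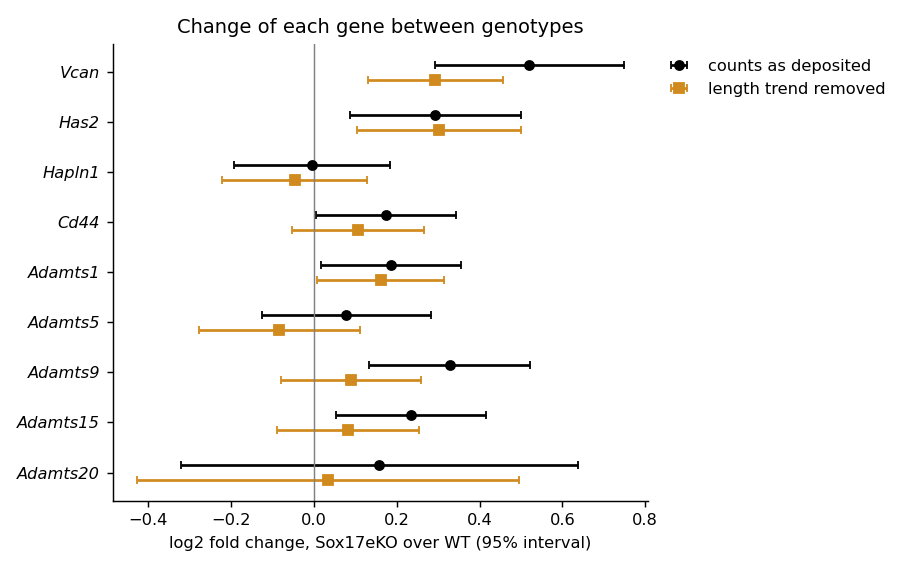
Log2 fold change of each gene, Sox17eKO over WT, with its 95% interval, from the counts as deposited (black circles) and after a smooth trend on exonic length was removed from each library (orange squares). Circles come from the fit on 16570 genes and squares from a fit on 13361 protein-coding genes. Vcan moves from 0.52 to 0.29 and Adamts9 from 0.33 to 0.09, while Has2 is at 0.29 and 0.30.

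Vcan and Adamts9 are the longest of the 9 genes, at 14462 and 15048 bp of exon, and fold changes across all genes ran with length. Among protein-coding genes, the 10% with the longest exons had a median log2 fold change of 0.21 and the 10% with the shortest had one of -0.16. Of the longest 1338, 23.7% were called higher in Sox17eKO, against 3.61% of all 13361 protein-coding genes. Vcan, Adamts9, Adamts5 and Adamts15 belong to that longest group. Adamts5 and Adamts15, at 10791 and 10363 bp, were not called. The smooth trend on length at the position of Vcan stood at 0.12 and 0.13 (log2) in Sox17eKO replicates 1 and 2, against -0.07 and -0.17 in WT replicates 1 and 2, so it followed the same order of groups as Vcan itself. At the position of Has2, with 4237 bp of exon, the trend was between -0.0031 and 0.0037 in all 4 libraries.

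With the trend removed, none of the 9 genes passed by edgeR, with 3 at an unadjusted p under 0.05, and 0.913% of protein-coding genes were called. The share of all genes at that unadjusted p is not given here for this or any alternative fit. The log2 fold change of Vcan was 0.29 (95% interval 0.13 to 0.46, edgeR adjusted p = 0.0758), against 0.53 on these genes with the trend kept, where 5.61% were called. For Adamts9 it was 0.09 (95% interval -0.08 to 0.26, edgeR adjusted p = 0.677), against 0.34. Has2, a shorter gene, was at 0.30 in both fits (edgeR adjusted p = 0.138 and 0.0671), which put it level with Vcan. Where the GC trend was removed together with length, Vcan passed at 0.28 (edgeR adjusted p = 0.0406) and Has2 did not (0.28, edgeR adjusted p = 0.0671). Where a replicate block was fitted together with length, both passed, Vcan at 0.30 (edgeR adjusted p = 0.000133) and Has2 at 0.31 (edgeR adjusted p = 0.0111). That block pairs libraries by replicate number alone, which is not stated to mark a shared litter or day. It also leaves fewer residual degrees of freedom than the fit on genotype only. Adamts1 was at 0.16 and Cd44 at 0.11, Adamts15 and Adamts20 at 0.08 and 0.03, and Hapln1 and Adamts5 at -0.05 and -0.08. A genotype difference that itself followed length would be taken out by this step as well. Whether RNA integrity or unspliced RNA has a part in these values was not tested.

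**Figure D3:**
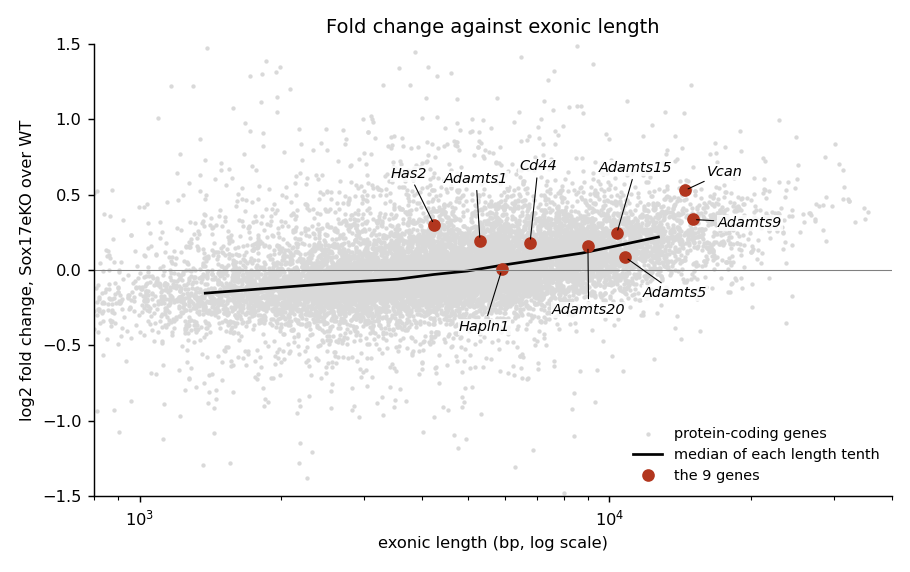
Log2 fold change, Sox17eKO over WT, against exonic length (log scale) for 13361 protein-coding genes (grey), with the median of each of 10 length groups (line) and the 9 genes (red); 187 genes lie outside the axes. Vcan and Adamts9 lie beyond the right end of the line, at 0.53 and 0.34, Has2 and Adamts1 sit above it, and Adamts5 and Hapln1 below it.

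**Figure D4:**
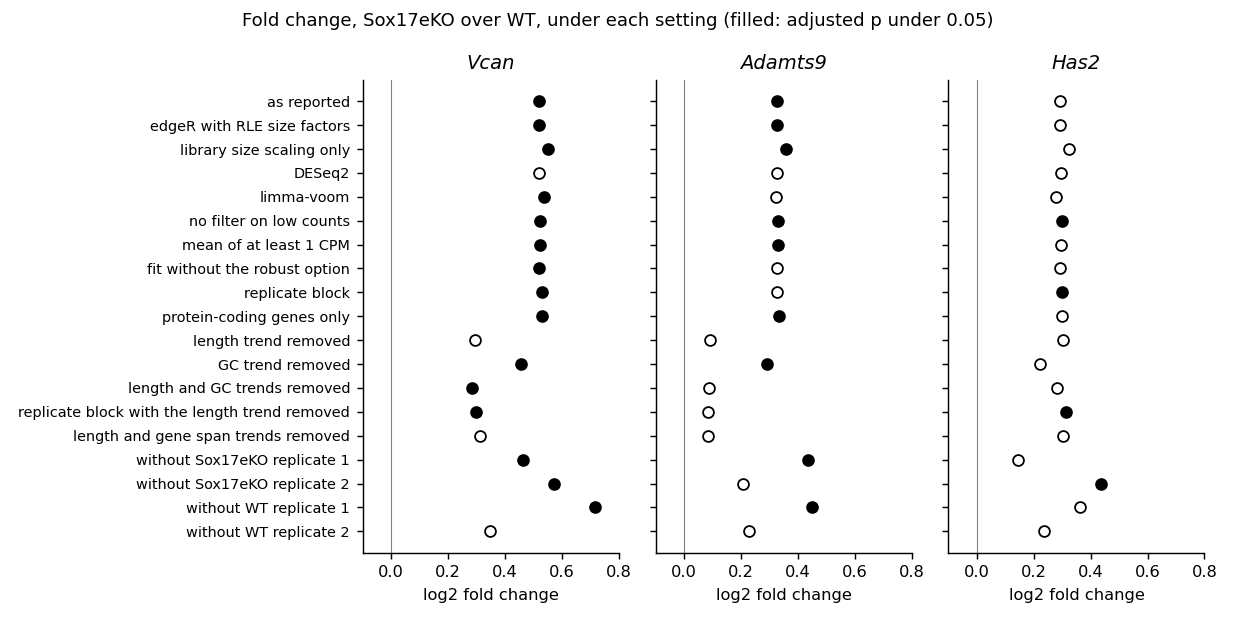
Log2 fold change, Sox17eKO over WT, of Vcan, Adamts9 and Has2 under each processing setting, with filled circles where the adjusted p was under 0.05. Vcan is filled in 14 of 18 alternatives, Adamts9 in 8 and Has2 in 4, and all values lie above 0.

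Other genes of the same pathways were read from lists, without a test of any list against the other genes, beside the 5.35% of all genes called. Their counts at an unadjusted p under 0.05 stand beside at least 3230 of all 16570 genes tested by edgeR. Of 27 other genes of hyaluronan synthesis, breakdown and binding, 18 had enough reads to be tested and none passed by edgeR, by DESeq2 or by limma-voom, with 1 at an unadjusted p under 0.05 and a median log2 fold change of -0.02. That gene was Layn, which encodes the hyaluronan receptor layilin, at 7.52 and 8.91 CPM in the Sox17eKO libraries, against 9.77 and 12.4 CPM in the WT libraries (log2 fold change -0.40, edgeR adjusted p = 0.179). The hyaluronidase gene Hyal2 was lower by a fitted -0.16 on the log2 scale (edgeR adjusted p = 0.29). Of 22 enzymes that build chondroitin sulfate chains, 21 were tested and none passed by any of these tools, with 1 at an unadjusted p under 0.05 and a median of -0.04. That gene was B3gat3, which adds the glucuronic acid that completes the linker to the core protein (log2 fold change -0.35, edgeR adjusted p = 0.0608).

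Of 10 other lecticans and matrix partners of versican, 7 were tested and Fbn2 rose. Fbn2, fibrillin-2 of the embryonic microfibril, was at 581 and 646 CPM in the Sox17eKO libraries, against 488 and 456 CPM in the WT libraries (log2 fold change 0.38, edgeR adjusted p = 0.0118). Fbn2 has 13215 bp of exon, and it did not pass with the length trend removed (0.17, edgeR adjusted p = 0.263) or when WT replicate 2 (0.33, edgeR adjusted p = 0.114) or Sox17eKO replicate 2 (0.30, edgeR adjusted p = 0.105) was left out. Of 20 other ADAMTS and ADAMTS-like genes in the table, 18 were tested, Adamts19 and Adamts6 rose and none fell. Adamts19, a protease gene whose loss has been tied to valve disease, was at 66.8 and 62.8 CPM in the Sox17eKO libraries, against 48.8 and 39.7 CPM in the WT libraries (log2 fold change 0.54, edgeR adjusted p = 0.00341). Adamts6 was at 61.2 and 55.2 CPM in the Sox17eKO libraries, against 47.0 and 43.4 CPM in the WT libraries (log2 fold change 0.36, edgeR adjusted p = 0.0267). With the length trend removed neither passed (0.32 and 0.26, edgeR adjusted p = 0.0894 and 0.162), and neither did with WT replicate 2 left out (edgeR adjusted p = 0.0538 and 0.19). Adamts6 was also lost when Sox17eKO replicate 1 was left out (0.29, edgeR adjusted p = 0.209) and with DESeq2 (DESeq2 adjusted p = 0.0768).

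Of 8 genes that control such proteases, 7 were tested and none passed by edgeR, DESeq2 or limma-voom, with 2 at an unadjusted p under 0.05. Timp1, a metalloprotease inhibitor, was at 12.1 and 12.1 CPM in the Sox17eKO libraries, against 16.1 and 14.8 CPM in the WT libraries (log2 fold change -0.36, edgeR adjusted p = 0.124). Lrp1, a receptor that clears ADAMTS enzymes, was at 125 and 150 CPM in the Sox17eKO libraries, against 120 and 113 CPM in the WT libraries (log2 fold change 0.24, edgeR adjusted p = 0.12).

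The 3 protein-coding genes whose profile over the 4 libraries was closest to that of Vcan were Adamts19, Dmxl2 and Phc3. They were ranked by the root mean square difference of centred log2 CPM, which was 0.03, 0.04 and 0.05, among 3981 genes of at least 50 CPM. All 3 have long exons, of 14040, 13285 and 17485 bp. Adamts19, named again here, also had the smallest adjusted p of the other ADAMTS genes. Both rankings come from the same 4 libraries, so a profile close to that of a called gene and a call are not separate findings.

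Markers of cells that the outflow tract holds were read beside these values. Of all genes tested, 4.13% were called higher in Sox17eKO and 1.22% lower. The 10 cushion mesenchyme markers summed to 4459 and 4440 CPM in the Sox17eKO libraries, against 4632 and 4160 CPM in the WT libraries, and the groups overlapped. Col3a1 alone averaged 1921 CPM in Sox17eKO and 1930 CPM in WT, so it weighs heavily in these sums. By gene, 3 of the 10 had a higher and 7 a lower fitted level, with a median log2 fold change of -0.10. Of the cushion markers Pdgfra rose (log2 fold change 0.32) and Dcn fell (-0.32). The 10 endothelial markers summed to 948 and 1016 CPM in the Sox17eKO libraries, against 1028 and 1066 CPM in the WT libraries, and Tie1 fell (-0.34). Pdgfra was lost with the length trend removed (0.17, edgeR adjusted p = 0.289), and Dcn with DESeq2 (DESeq2 adjusted p = 0.0664). Pdgfra and Dcn were also both lost with limma-voom. Each of these 3 calls was lost without WT replicate 2, those of Pdgfra and Tie1 also without Sox17eKO replicate 1, and that of Dcn also without Sox17eKO replicate 2 or WT replicate 1. No endocardial marker of 8, Hapln1 among them, passed by edgeR, DESeq2 or limma-voom. An unadjusted edgeR p under 0.05 was met by 2 of the 8, and by at least 3230 of all 16570 genes tested. Endocardial sums were 641 and 624 CPM in the Sox17eKO libraries, against 653 and 673 CPM in the WT libraries. Erythroid markers summed to 1610 and 2213 CPM in the Sox17eKO libraries, against 2493 and 3305 CPM in the WT libraries. Hbb-y, an embryonic globin gene, was the 1 of 8 that was called, as lower (log2 fold change -0.56). Epicardial markers summed to 312 and 283 CPM in the Sox17eKO libraries, against 344 and 370 CPM in the WT libraries, and Upk3b and Lrrn4, 2 of 7, were called lower. Cardiomyocyte markers, with the long titin gene Ttn among them, summed to 41054 and 42017 CPM in the Sox17eKO libraries, against 29649 and 28894 CPM in the WT libraries, and 2 of 10 (Ttn and Ryr2) rose. Without Ttn the other 9 summed to 21663 and 23692 CPM in the Sox17eKO libraries, against 21538 and 22408 CPM in the WT libraries, and the groups overlapped. Of the 10, 5 had a higher and 5 a lower fitted level, with a median log2 fold change of -0.01. Smooth muscle markers summed to 1998 and 1945 CPM in the Sox17eKO libraries, against 2128 and 2164 CPM in the WT libraries, and of 8 Myocd rose and Cnn1 fell. Ttn and Ryr2 stayed called with the length trend removed (0.67 and 0.35, edgeR adjusted p = 1.71e-06 and 0.0101). They also did with DESeq2 (DESeq2 adjusted p = 1.14e-40 and 9.16e-15). With 1 library left out, Ttn ranged from 1.22 to 1.54 and Ryr2 from 0.67 to 0.82 (log2 fold change). The next values concern the 5 calls of Hbb-y, Upk3b, Lrrn4, Myocd and Cnn1. Of these 5 calls, those of Hbb-y (0.221), Myocd (0.165) and Cnn1 (0.0758) were lost with the length trend removed (edgeR adjusted p in brackets). With DESeq2 those of Hbb-y and Myocd were lost (DESeq2 adjusted p = 0.124 and 0.116), and Lrrn4 was given no adjusted p. All 5 were lost without WT replicate 2, all but Hbb-y without Sox17eKO replicate 2, Hbb-y without Sox17eKO replicate 1, and Myocd without WT replicate 1. Macrophage markers summed to 108 and 106 CPM in the Sox17eKO libraries, against 111 and 119 CPM in the WT libraries, and of 7 none passed by edgeR, DESeq2 or limma-voom, with none at an unadjusted p under 0.05. Called or not, 8 of 8 erythroid markers had a lower fitted level in Sox17eKO (median log2 fold change -0.56). So had 7 of 7 epicardial (-0.31), 8 of 8 endocardial (-0.13) and 9 of 10 endothelial markers (-0.13). Of macrophage markers 5 of 7 were lower (-0.20), and of smooth muscle markers 4 of 8 (-0.01). The median over all genes tested was -0.01. No marker of these lists was at 0 reads. The part of cell makeup in the Vcan and Adamts9 values was not tested.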

How the data were processed

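RNA was counted in 4 outflow tract libraries, 2 per genotype, grouped by sample title. The authors deposited a table of unnormalized read counts by Ensembl identifier. The submitters' processing notes name TopHat2, HTSeq and mm10, and versions, annotation release and strand setting are not given in the sources used here. Of the 45706 genes, 45143 matched a symbol in GENCODE M21 (GRCm38), which also gave positions and exonic lengths (the union of a gene's exons). Library sizes and tests did not use the summary rows of HTSeq. They held 20.4% to 34.1% (no feature) and 3.38% to 6.22% (ambiguous) of uniquely placed reads, and 72.5% to 79.0% of all rows' counts were alignments that were not unique. Counts of replicates were further apart than sampling noise allows (chi-square over degrees of freedom 6.01 in Sox17eKO and 4.77 in WT).

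Genotypes were compared by the quasi-likelihood test of edgeR 4.0.16 in R 4.3.3 (robust, TMM, filterByExpr, genotype only) on 16570 genes with Benjamini-Hochberg adjustment over all of them and a threshold of 0.05. The fit had 2 residual degrees of freedom, so p-values measure the spread between pools, moderated over genes. Standard errors came from the fold change and the F statistic. CPM and RPKM use TMM-scaled library sizes. Alternatives were DESeq2 1.42.0, limma-voom (limma 3.58.1), other scalings and filters, a replicate block, each library left out, and smooth trends (mgcv 1.9.3) on exonic length or GC content of the longest transcript removed per library. A trend on gene span was added after seeing the data. The scripts were tested on simulated data.

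The 9 genes and all lists were chosen with earlier results of these data known. The naming rule took all 9 genes, called genes of each list or else those with the smallest p, Sox17, and the 3 genes closest to Vcan. Of the lists, Tmem2 (an older symbol of Cemip2) and Adamtsl6 matched no row of their own. Promoter windows came from RefSeq (GRCm38.p6). No other sequence was printed.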

Additional observations from a re-analysis of the deposited data

How the results depend on the processing

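The count of genes called, 886 as reported, was 392 with DESeq2, 517 with limma-voom, 1364 with no filter on low counts, 122 with the length trend removed, 308 with length and GC trends removed and 151 with length and gene span trends removed. With 1 library left out it ranged from 192 to 1219. Of the 9 genes, 2 were called as reported, 0 with DESeq2 (3 at an unadjusted p under 0.05), 1 with limma-voom, 1 without the robust option, 0 with the length trend removed, 1 with length and GC trends removed and 0 with length and gene span trends removed (3 at an unadjusted p under 0.05 in each fit with 0). With 1 library left out it ranged from 0 to 2, and the fit with 0, without WT replicate 2, had 2 at an unadjusted p under 0.05.

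Vcan kept its direction in all 18 alternatives and passed in 14. It did not pass with DESeq2 (log2 fold change 0.52, adjusted p = 0.085), with the length trend removed (0.29) or with length and gene span trends removed (0.31), and with 1 library left out it ranged from 0.35 to 0.72. Adamts9 passed in 8 of 18, and not with DESeq2 (adjusted p = 0.0777) or limma-voom (0.0883). Has2 passed in 4, and Adamts15 in 1, with the GC trend removed (0.27, edgeR adjusted p = 0.0312). No other gene of the 9 passed in any of them. Hapln1, near 0 throughout, turned positive with library size scaling (0.028), no filter (0.00048) and protein-coding genes only (0.0039), and ranged from -0.16 to 0.14 with 1 library left out. Adamts5 turned negative with the trends removed on length (-0.083), on length and GC (-0.094), on length with a replicate block (-0.082) and on length and span (-0.058). Adamts20 ranged from -0.080 to 0.40 with 1 library left out. Apart from the trend removal itself, the cause of these shifts was not tested.

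The replicate numbers are not stated to mark a shared litter or day, and deviations of same-numbered libraries from their group means had a correlation of -0.0118 over genes. With a replicate block 1684 genes were called, and Vcan (0.53) and Has2 (0.30, edgeR adjusted p = 0.0161) passed while Adamts9 did not (0.0627).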

Other observations

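Some relatives of the 9 genes were barely present in these libraries. Has1 and Hyal3, which encode another hyaluronan synthase and a hyaluronidase, averaged 0.0345 and 0.263 CPM in Sox17eKO and 0.204 and 0.524 CPM in WT. Has3, the remaining synthase gene, averaged 1.53 CPM in Sox17eKO and 1.16 CPM in WT, so Has2 held most of the synthase reads. The other link protein genes Hapln2 and Hapln4 averaged 0.0227 and 0.091 CPM in Sox17eKO and 0.0388 CPM each in WT, and Hapln3 averaged 0.88 CPM in Sox17eKO and 0.976 CPM in WT. Of the other lecticans, Acan, the aggrecan gene of cartilage, averaged 1.98 CPM in Sox17eKO and 2.01 CPM in WT. Cemip2, a cell surface hyaluronidase gene, was at 445 and 468 CPM in the Sox17eKO libraries, against 440 and 415 CPM in the WT libraries (log2 fold change 0.10, edgeR adjusted p = 0.521), the highest CPM of the 27 listed hyaluronan genes.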
